A study of Mus musculus with 60 samples.

Results

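Fetal brains of Pon1 knockout (KO) mice whose dams received chlorpyrifos oxon (CPO) at 0.50 mg/kg/d were compared with those of KO dams at dose 0. The comparison holds 10 of the 60 arrays in the series, 5 per dose. These arrays were chosen by an inferred order of the sample labels, because the deposited labels did not match the Pon1 signal. The 60 labels were numbered by group in text order and then by replicate, and the numbers were sorted as text with a trailing mark that puts 10 to 19 before 1. The label of each sorted number was then given to the value column at the same position. The Pon1 signal was the measured value used to check this order, so no Pon1 difference between the reassigned genotypes is offered as a finding. The doses within KO could not be checked in the same way, because they rest on the inferred order alone.

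All mice were on the B6.129 strain background. The 12 groups covered 4 genotypes at 3 doses each, with 5 arrays per group. The genotypes were wild type (WT), PON1-knockout, tgHuPON1Q192 (Q-tg) and tgHuPON1R192 (R-tg), the last pair carrying either variant of the human gene as a transgene. Dams were exposed for 12 days, on gestational days 6 to 17, and fetal brains were collected on day 18. Dams more than 1.5 SD from their group's mean brain acetylcholinesterase activity had been set aside before 5 per group were drawn at random. RNA of all fetal brains of a dam was combined on 1 array, so the dam was the replicate. The labels do not give the sex of the fetuses or the bounds of the dissection. KO dams received 0, 0.50 or 0.75 mg/kg/d, and dams of the other genotypes received 0, 0.75 or 0.85. The drawing of dams by enzyme activity, the pooling and the knockout shared by both groups limit what this comparison can model.

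CPO is the active metabolite of the insecticide chlorpyrifos. It inhibits acetylcholinesterase, the enzyme that breaks down acetylcholine at synapses, by binding the serine of its active site, and it also binds other serine hydrolases. Paraoxonase 1 is a plasma enzyme made mainly in liver that hydrolyses CPO, and mice that lack it are more sensitive to the compound.

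Under the reassigned labels, Pon1 was below a log2 signal of 7 in 15 of 15 KO arrays, as the rule requires. In the order of replicates 1 to 5, used for all values by array, the KO arrays at dose 0 had Pon1 at 4.84, 5.36, 5.39, 5.45 and 5.50. Those at 0.50 had 5.29, 5.38, 5.38, 4.97 and 5.20, and those at 0.75 had 5.39, 5.67, 5.15, 5.47 and 5.64. No KO array came within 4 log2 units of the other 45, which lay between 9.72 and 10.14. The highest KO array, at 5.67, was well below the threshold, and the lowest of the other arrays, at 9.72, was well above it. WT arrays spanned 9.72 to 10.14, Q-tg arrays 9.83 to 10.05 and R-tg arrays 9.74 to 10.12, so this transcript cluster did not part these 3 genotypes from each other.

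The reassignment moved most arrays. It kept the labelled group for 13 of 60 arrays and the labelled genotype for 22. All 5 reassigned KO arrays at dose 0 carried the label of another genotype. Of the reassigned KO arrays at 0.50, 3 were labelled KO at dose 0 and 2 were labelled KO at 0.50. Under the deposited labels those 3 arrays would stand on the control side of the comparison, beside arrays reassigned to WT at 0.85. The values of that comparison are given with the alternatives.

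**Figure D1:**
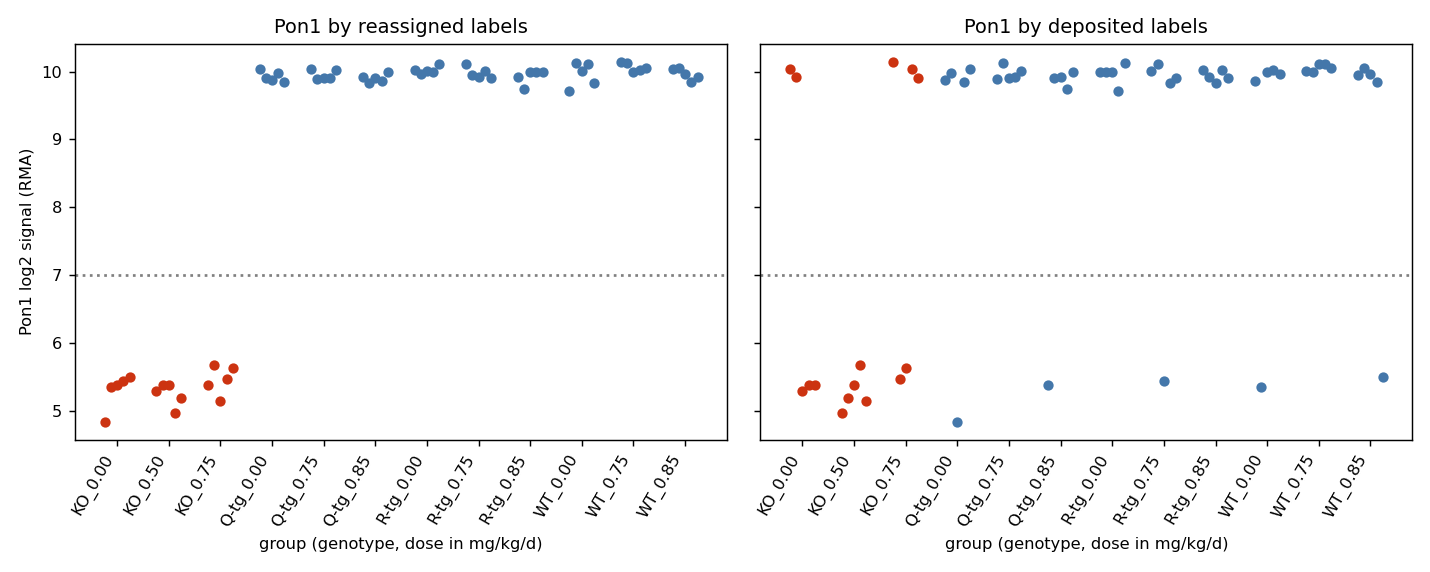
Log2 signal of Pon1 (vertical axis) in each of the 60 arrays by group (horizontal axis), with the reassigned labels on the left and the deposited labels on the right, KO groups in red, other groups in blue and the threshold of 7 dotted. With the reassigned labels all 15 KO arrays lie at or below 5.67 and the other 45 at or above 9.72, while with the deposited labels both levels occur in KO and in other groups.

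The labellings were also described by how many transcript clusters differed between genotypes that the rule did not separate by Pon1. Transcript clusters are the rows of this array type, usually 1 per gene. These counts were not independent of Pon1. The deposited WT, Q-tg and R-tg groups included the 5 arrays of low Pon1 that were reassigned to KO at dose 0. The part of those arrays in the counts was not tested. In a limma fit over 21789 transcript clusters, Q-tg minus WT over the 3 shared doses gave 100 calls at an adjusted p under 0.05 with the reassigned labels (51 higher, 49 lower, 0.459% of those tested). With the deposited labels limma gave 0 calls (0%), where 1345 had an unadjusted p under 0.05 and adjusted p-values began at 0.77. For R-tg minus WT over the 3 doses, the reassigned labels gave 70 calls (64 higher, 6 lower, 0.321%) and the deposited labels 0, with 671 at an unadjusted p under 0.05.

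The gene of smallest p in both was Entpd4, an enzyme that hydrolyses nucleotides in Golgi and lysosomal membranes. Its log2 signal fell by 0.52 in Q-tg (SE 0.0403, limma adjusted p = 1.34e-13) and by 0.47 in R-tg (SE 0.0403, limma adjusted p = 9.06e-12). WT arrays ranged from 9.54 to 10.19, Q-tg arrays from 9.33 to 9.67 and R-tg arrays from 9.37 to 9.62, so the groups overlapped at their edges. KO arrays were at 9.33 to 9.53, within the Q-tg range and below every WT array. KO minus WT at dose 0 was -0.64 (SE 0.0698), so the low level was not particular to the transgenic lines. At dose 0 alone limma called 1 transcript cluster in Q-tg against WT (0.00459%) and 4 in R-tg against WT (0.0184%), and 0 in each under the deposited labels, with 362 and 856 at an unadjusted p under 0.05.

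KO minus WT at dose 0 was described only, since the rule used Pon1. The reassigned labels put 786 transcript clusters past the limma threshold (695 higher, 91 lower, 3.61%), and the deposited labels 0 with 709 at an unadjusted p under 0.05. Among genes of chromosome 6, which carries Pon1, Asb4, a substrate receptor of a ubiquitin ligase, was at 7.62 to 8.08 in the 15 KO arrays and at 6.41 to 7.04 in the other 45. Calcr, the calcitonin receptor, was at 7.76 to 8.12 in KO and 7.19 to 7.60 in the others. Neither gene's ranges overlapped. Peg10, a paternally expressed gene derived from a retrotransposon, had its lowest KO array at 10.61 and its highest other array at 10.60. Between the doses of KO none of these 3 genes passed the test, and at 0.50 minus 0 the log2 differences were -0.09 (SE 0.07) for Asb4, -0.07 (SE 0.053) for Calcr and -0.07 (SE 0.058) for Peg10.

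No transcript cluster passed an adjusted p of 0.05 for CPO 0.50 against 0 in KO. limma called 0 of 21789 (0%), and its smallest adjusted p was 1. At an unadjusted p under 0.05 there were 341 (1.57%), of which 190 were higher at 0.50 (0.872%) and 151 lower (0.693%), where 1089 would be expected if nothing changed. The 5 arrays of a dose lay entirely above or below the 5 of the other for 83 transcript clusters (0.381%), with 31 higher at 0.50 (0.142%) and 52 lower (0.239%).

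The differences were small in size for nearly all genes. The 5th and 95th percentiles of the log2 differences were -0.09 and 0.10. The median SE was 0.064, and the 95% confidence interval lay within -0.5 to 0.5 for 99.6% of the transcript clusters and within -0.25 to 0.25 for 82.6%. Transcript clusters with a mean below 6.54 were called dim, since 95% of the 1035 for olfactory receptors lay under that level. Among the 15611 above it, the interval lay within -0.25 to 0.25 for 93% of them. Only Xist and Gh differed by more than 0.5, each with an SE close to its difference, and their values are given with the composition of the pools. The number of arrays limits the precision.

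**Figure D2:**
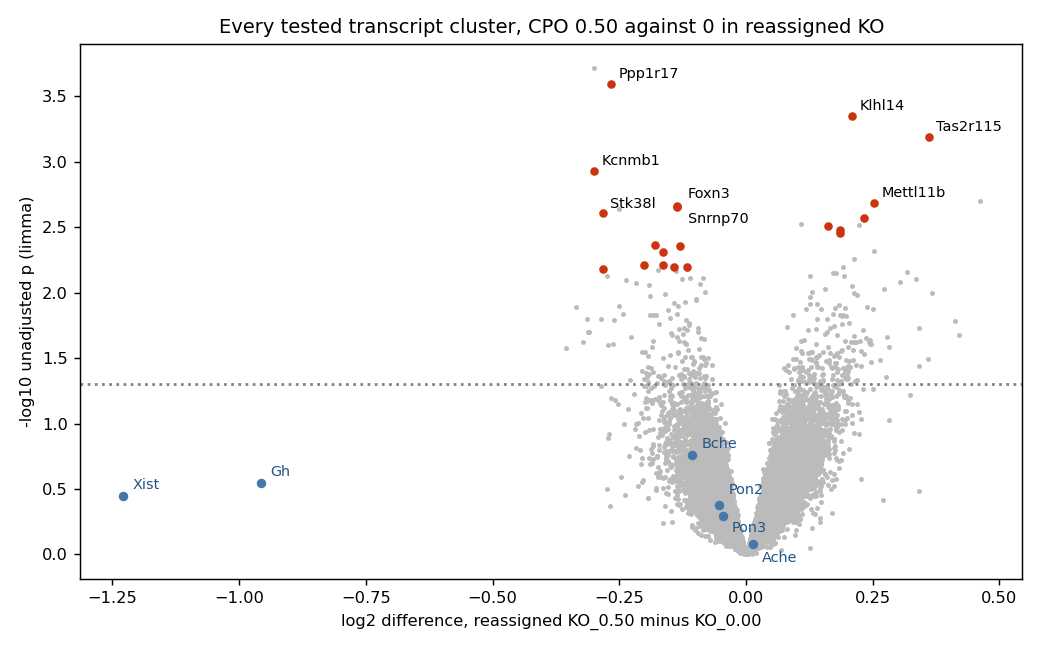
Log2 difference of reassigned KO at 0.50 minus KO at dose 0 (horizontal axis) against -log10 of the unadjusted limma p (vertical axis) for the 21789 transcript clusters tested, with the 20 named genes of smallest p in red, selected other genes in blue and an unadjusted p of 0.05 dotted. Nearly all points lie between -0.25 and 0.25, and Xist and Gh stand far to the left with large p. The highest grey point is Vmn1r52, a vomeronasal receptor at -0.30 that the naming rule passes over.

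Acetylcholinesterase, the enzyme that CPO inhibits, was measured here as transcript and not as activity. Ache was at 8.83, 8.83, 8.85, 8.87 and 8.63 in the arrays at dose 0 and at 8.83, 8.75, 8.90, 8.73 and 8.87 at 0.50. The groups overlapped over most of their range, and the lowest array was replicate 5 of dose 0. The log2 difference was 0.013 (SE 0.064, 95% confidence interval -0.115 to 0.142), so a transcript difference beyond 0.142 in either direction lay outside the interval. The sign turned without that array, to -0.03. At 0.75 minus 0 Ache differed by 0.08 (SE 0.064), with the same controls.

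Bche, butyrylcholinesterase, which also binds organophosphates and is less abundant in brain, was at 6.62, 6.73, 6.54, 6.69 and 6.66 at dose 0. At 0.50 it was at 6.63, 6.68, 6.45, 6.60 and 6.35. The 2 lowest arrays were at 0.50 but the groups overlapped, and the log2 difference was -0.11 (95% confidence interval -0.26 to 0.05). Of 8 cholinesterases and their anchors and partners 4 were above 0 and 4 below. Besides Bche, the largest differences were 0.04 for Ric3, a chaperone of nicotinic receptors, 0.04 for Musk, the kinase that organises the neuromuscular synapse, and -0.03 for Colq, the collagen tail that anchors acetylcholinesterase in muscle.

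Pon2 and Pon3, the intracellular and the plasma relatives of paraoxonase 1, were measured in all 10 arrays. Pon2 ranged from 7.66 to 7.78 at dose 0 and from 7.61 to 7.71 at 0.50, with a log2 difference of -0.05 (SE 0.0652). Pon3 ranged from 6.68 to 6.88 and from 6.68 to 6.82, with a log2 difference of -0.05 (SE 0.0683). Both overlapped between the doses and neither passed the test.

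No gene list had a member past the threshold, in either direction. Over all 19938 genes, taking the brightest transcript cluster of each, 51.9% lay above 0, the median log2 difference was 0.00242, and 310 (1.55%) had an unadjusted p under 0.05. The 18 lists described here had medians between -0.0624 and 0.0716. The sex-linked list, whose genes are given with the pools, had 4 measured members and a median of 0.0407. The other 16, which cover other cell types, core cell functions and the neighbours of Pon1, had medians between -0.0339 and 0.0272, with 5 of 299 measured members at an unadjusted p under 0.05. The lists were read against these values and no list was tested as a whole.

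Receptors of acetylcholine were near 0 in difference. Of 16 nicotinic receptor subunits 13 were above 0, with a median of 0.0202 and 8 of the 16 dim. Chrnb3 had the largest difference at 0.12 (SE 0.077), ahead of Chrnb1 at 0.10, Chrna6 at 0.08 and Chrna3 at 0.05. The first 3 were dim, while Chrna3, a subunit of ganglionic and habenular receptors, was at 8.84 to 9.04 at dose 0 and 8.93 to 9.02 at 0.50. Of 14 muscarinic receptors and genes of cholinergic neurons 9 were above 0, with a median of 0.0237. Chrm2, the M2 receptor, differed by 0.07 (SE 0.0591) and Slc5a7, the choline transporter that supplies acetylcholine synthesis, by 0.05 (SE 0.0778). The transcription factors Mnx1, of motor neurons, and Gbx1, of the forebrain and spinal cord, differed by 0.06 and 0.05.

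Other serine hydrolases that organophosphates bind divided evenly. Of 44 measured, 24 were above 0 and 20 below, with a median of 0.013. Only Nceh1 and Lypla2 had an unadjusted p under 0.05. Nceh1, a cholesteryl ester hydrolase that binds CPO in brain, was at 8.55, 8.73, 8.65, 8.77 and 8.50 at dose 0 and at 8.76, 8.82, 8.90, 8.68 and 8.72 at 0.50. These groups overlapped between 8.68 and 8.77, and the log2 difference was 0.14 (SE 0.0596, limma adjusted p = 1). Lypla2, which removes palmitate from proteins, was lower at 0.50 by 0.10 (SE 0.0481, limma adjusted p = 1), with 1 low array at dose 0 among the values at 0.50. Aadac, an arylacetamide deacetylase, was dim and differed by -0.10, and Pla2g7, a phospholipase of platelet activating factor, by 0.08.

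Genes of foreign compound metabolism and of oxidative stress were mixed in sign. Of 27 xenobiotic genes 17 were above 0, with a median of 0.0209. Cyp1a2, a cytochrome of the aryl hydrocarbon receptor response, was dim and differed by -0.15 (SE 0.0951). Gstt1, a glutathione transferase, was at 7.77 to 7.98 at dose 0 and 7.86 to 8.09 at 0.50, and the mean was higher by 0.14 (SE 0.0567, limma adjusted p = 1). Gsta4, which conjugates lipid peroxidation products, differed by -0.12 and Ephx1, the microsomal epoxide hydrolase, by 0.10.

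Of 23 targets of the oxidative stress factor NRF2 13 were above 0, with a median of 0.00582. Hmox1, heme oxygenase 1, was at 7.39 to 7.50 at dose 0 and at 7.50 to 7.59 at 0.50. The arrays of the doses did not overlap, but they lay next to each other, and the log2 difference was 0.10 (SE 0.0643, limma adjusted p = 1). Prdx1, a peroxiredoxin, differed by -0.13, Txn1, thioredoxin, by -0.08 and Osgin1 by -0.07. The median of this list was -0.0274 without replicate 1 of dose 0.

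Stress and activity programs gave no member past the threshold. Of 28 genes of the integrated stress response 19 were above 0, with a median of 0.0214. Their largest differences were -0.11 for Phgdh, the first enzyme of serine synthesis, 0.11 for Sesn2, a sestrin that restrains mTORC1, -0.08 for Ddit4 and 0.08 for Hspa5, the endoplasmic reticulum chaperone BiP. Of 15 cytosolic heat shock genes 5 were above 0, with a median of -0.00856 and all members between -0.08 and 0.07, from Dnajb1, a co-chaperone of HSP70, at the low end to Hspb8, a small heat shock protein, at the high end. Dnaja1 was at -0.06 and Hspe1 at -0.05.

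Immediate early genes are transcribed within minutes of neuronal activity, and 13 of 24 were above 0, with a median of 0.00368. Dusp1, a phosphatase of MAP kinases, was at 9.07, 9.41, 9.48, 9.45 and 9.44 at dose 0 and at 9.25, 9.21, 9.20, 9.16 and 9.41 at 0.50. Replicate 1 of dose 0 was the lowest of all 10 arrays and the other 4 of its group were level with or above the highest array at 0.50, and the log2 difference was -0.12 (SE 0.0762). Npas4, a factor induced by calcium entry in neurons, differed by 0.12 (SE 0.0698), Btg2, an antiproliferative gene of neural progenitors, by -0.12 (SE 0.0632) and Homer1, a scaffold of the postsynapse, by 0.08 (SE 0.0476).

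Brain development lists showed the same small sizes. Of 27 synapse genes 15 were above 0 (median 0.0115), led by Grin2a, an NMDA receptor subunit, at 0.10. Next came Homer1 at 0.08, Rims1, an active zone protein, at 0.07 and Camk2b at 0.06. Of 33 axon guidance genes 10 were above 0 (median -0.0151), with Robo3, a receptor of commissural axons, at -0.09 and dim, Efnb3 at -0.07, Nrp2 at -0.06 and Sema3e at 0.06. Of 31 cell cycle genes 12 were above 0 (median -0.0161), and the largest differences were all negative, at -0.09 for Birc5, -0.08 for the replication helicase subunit Mcm3, -0.08 for the mitotic kinase Plk1 and -0.07 for Cenpf.

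Of 22 genes of radial glia and astrocytes 10 were above 0 (median -0.00991). Agt, angiotensinogen, made by astrocytes in brain, was at 8.17, 8.11, 8.03, 8.14 and 7.71 at dose 0 and at 8.05, 8.17, 8.51, 8.11 and 8.06 at 0.50. The lowest array was at dose 0 and the highest at 0.50, while the other 8 overlapped, and the log2 difference was 0.15 (SE 0.0927). Eomes, a factor of intermediate progenitors, differed by -0.14 (SE 0.094), Nes, the intermediate filament of progenitors, by -0.13 (SE 0.0788) and Aqp4, the water channel of astrocytes, by 0.12 (SE 0.0864).

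Imprinted genes of growth, expressed from 1 parental allele, were below 0 for 15 of 17 members, with a median of -0.0472 and none at an unadjusted p under 0.05. Dlk1, a Notch-related growth regulator, was at 9.46, 9.37, 9.45, 9.41 and 9.43 at dose 0 and at 9.14, 9.37, 9.38, 9.25 and 9.38 at 0.50, a log2 difference of -0.12 (SE 0.0611). Its lowest array at dose 0 lay within the upper values at 0.50. Mest differed by -0.10 (SE 0.0524), with replicate 1 of dose 0 at 11.48 above all others, Meg3, a noncoding RNA of the Dlk1 cluster, by -0.09 (SE 0.0659) and Magel2 by -0.09 (SE 0.0448). At 0.75 minus 0, against the same controls, Dlk1 differed by -0.18, Mest by -0.02, Meg3 by 0.05 and Magel2 by -0.02. Without replicate 1 of dose 0, Mest at 0.50 minus 0 was at -0.038 and Meg3 at -0.011. The median of the list was -0.0353 without that array and 0.00569 under the deposited labels.

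**Figure D3:**
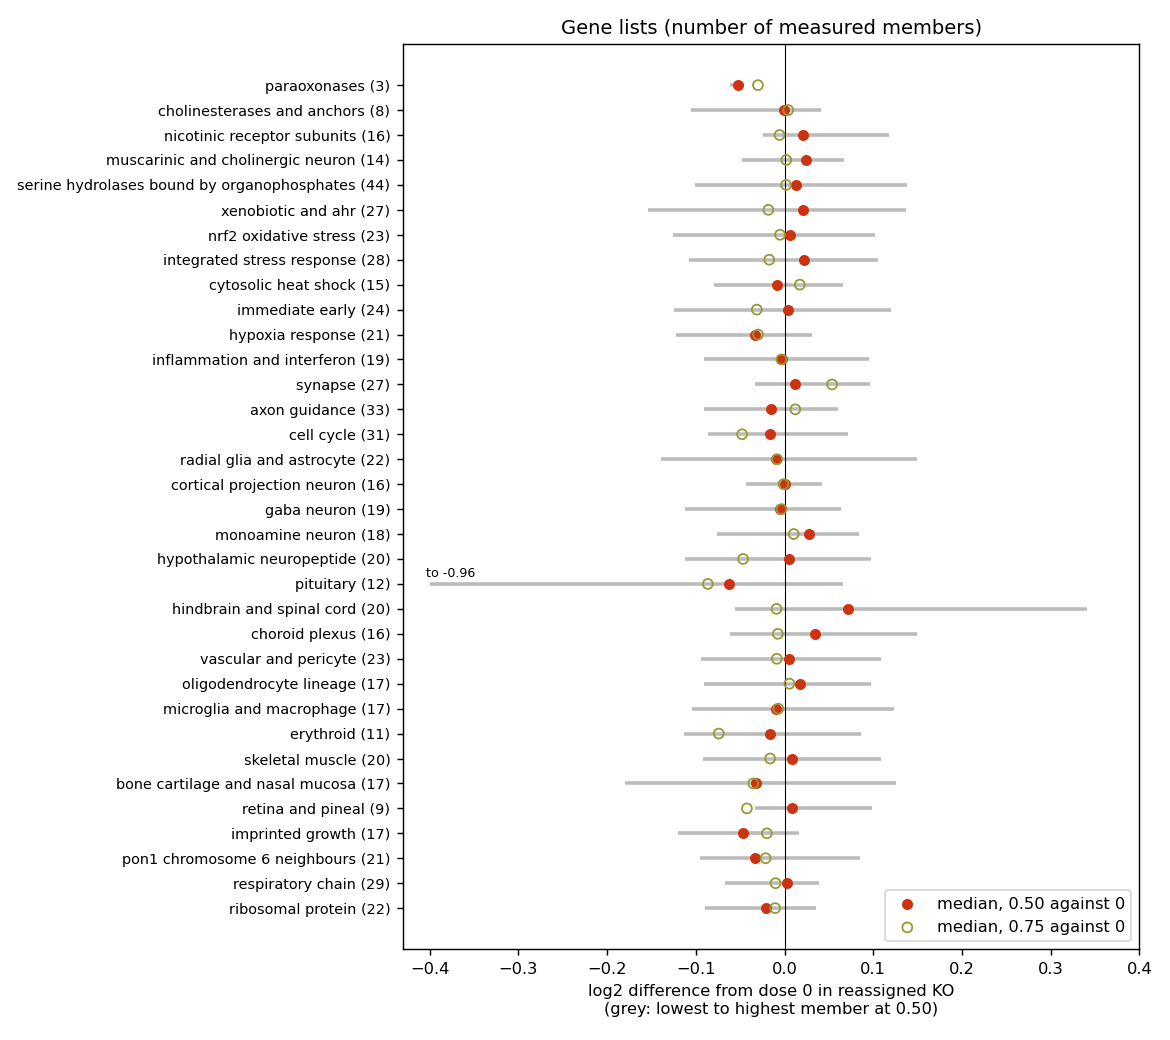
Median log2 difference from dose 0 in reassigned KO for each gene list (rows, with the number of measured members), at 0.50 as filled red points and at 0.75 as open points, with the range of the members at 0.50 in grey. The medians at 0.50 lie between -0.0624 for pituitary genes and 0.0716 for hindbrain and spinal cord genes, and no member of any list passed the test.

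Symbols of predicted genes, clones, small RNAs and olfactory or vomeronasal receptors were passed over in the naming. The 20 named genes of smallest p are given as values, since none passed the threshold. Their unadjusted p ranged from 0.000254 to 0.00654, and their log2 differences from 0.116 to 0.361 in size. Of the 20, 7 were higher and 13 lower at 0.50, and 7 were dim. The arrays of the doses did not overlap for 7 of the 20, against 83 of all 21789 transcript clusters (0.381%). The 20 were chosen by p in this same contrast, which favours groups that do not overlap, so the count is a description only. For 11 of the 20 the mean at 0.50 was nearer to the median of the other 45 arrays than the mean at dose 0 was, against 53% of all transcript clusters.

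Ppp1r17, an inhibitor of protein phosphatases known from cerebellar Purkinje cells, had the smallest p among the named genes. It was dim, at 5.68, 5.64, 5.59, 5.68 and 5.50 at dose 0 and at 5.30, 5.35, 5.36, 5.30 and 5.46 at 0.50. The groups did not overlap, and the arrays at 0.50 lay around the median of the other 45, which was 5.39. The log2 difference was -0.27 (SE 0.0679) at 0.50 and -0.21 (SE 0.068) at 0.75 against the same controls. In the 6 contrasts of a dose with dose 0 in WT, Q-tg and R-tg it ranged from -0.09 to 0.10.

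Klhl14, a member of the Kelch-like family, was at 6.74, 7.01, 6.94, 6.89 and 6.92 at dose 0 and at 7.06, 7.15, 7.18, 7.15 and 7.01 at 0.50. Replicate 1 of dose 0 was the lowest, and the groups touched at 7.01. The log2 difference was 0.21 (SE 0.0558), and the 6 contrasts in the other genotypes lay between -0.003 and 0.043.

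Tas2r115, a bitter taste receptor that was dim, was at 4.84, 4.70, 4.75, 4.69 and 4.74 at dose 0 and at 4.86, 5.30, 5.23, 5.06 and 5.07 at 0.50. The groups did not overlap but were next to each other at their edges, and the log2 difference of 0.36 (SE 0.0996) was the largest in size of the 20. At 0.75 it was at 4.77, 4.79, 5.01, 5.02 and 4.69. There 3 arrays lay within the range of dose 0, and the pair at 5.01 and 5.02 lay above the lowest array at 0.50 and below its other 4. Kcnmb1, the beta subunit of a calcium-activated potassium channel, was also dim, at 6.11 to 6.69 at dose 0 and 5.81 to 6.10 at 0.50. Its highest array was replicate 5 of dose 0 and its lowest was replicate 1 of 0.50, the groups did not overlap, and the log2 difference was -0.30 (SE 0.087), between -0.35 and -0.21 when each array was left out in turn.

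The names above the dim level are given by what each is known to do, nuclear proteins first. Foxn3, a forkhead repressor, was at 8.79, 8.85, 8.86, 8.80 and 8.81 at dose 0 and at 8.72, 8.67, 8.59, 8.71 and 8.74 at 0.50. The groups did not overlap, and the log2 difference was -0.14 (SE 0.0423) at 0.50 and -0.02 (SE 0.042) at 0.75. Ing2, a reader of histone methylation, was at 7.51 to 7.72 at dose 0 and 7.36 to 7.51 at 0.50, a log2 difference of -0.16 (SE 0.0561), and its groups did not overlap.

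Dpy30, a subunit of histone methyltransferase complexes, was at 9.90 to 9.96 at dose 0 and 9.64 to 9.89 at 0.50, a log2 difference of -0.12 (SE 0.0406), and its groups did not overlap either. Nap1l1, a histone chaperone, differed by -0.14 (SE 0.05) and Ptms, parathymosin, by -0.13 (SE 0.0436), each with overlapping groups. Ss18, a subunit of the BAF chromatin remodeller, was higher at 0.50 by 0.19 (SE 0.0607), with the dose 0 array at 8.11 above the arrays at 8.05 and 8.06 of 0.50. Snrnp70, the U1 spliceosome protein, differed by -0.14 (SE 0.0424) and Smug1, a uracil DNA glycosylase, by 0.16 (SE 0.0524).

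The remaining names were of signalling, matrix and metabolism. Stk38l, a kinase of the NDR family, was at 7.43 to 7.65 at dose 0 and 6.84 to 7.50 at 0.50, with replicate 4 of 0.50 far below the rest, and a log2 difference of -0.28 (SE 0.0889), or -0.18 at the smallest when each array was left out in turn. Nmi, an interactor of STAT factors that was dim, was at 5.98 to 6.08 at dose 0 and 6.16 to 6.33 at 0.50, with no overlap and a log2 difference of 0.19 (SE 0.0603). Hdc, which makes histamine and was dim, differed by 0.23 (SE 0.0743), with the arrays at 6.82 and 6.85 of 0.50 above the rest.

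Mettl11b, a methyltransferase of protein N termini, and Styx, a pseudophosphatase, were dim, and differed by 0.25 (SE 0.0781) and -0.28 (SE 0.0993). Gng8, a G protein gamma subunit, differed by -0.18 (SE 0.0602), Hmcn1, a matrix protein, by -0.20 (SE 0.0707) and Chchd7, a protein of the mitochondrial intermembrane space, by -0.16 (SE 0.0574). In these 5 genes the groups overlapped.

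**Figure D4:**
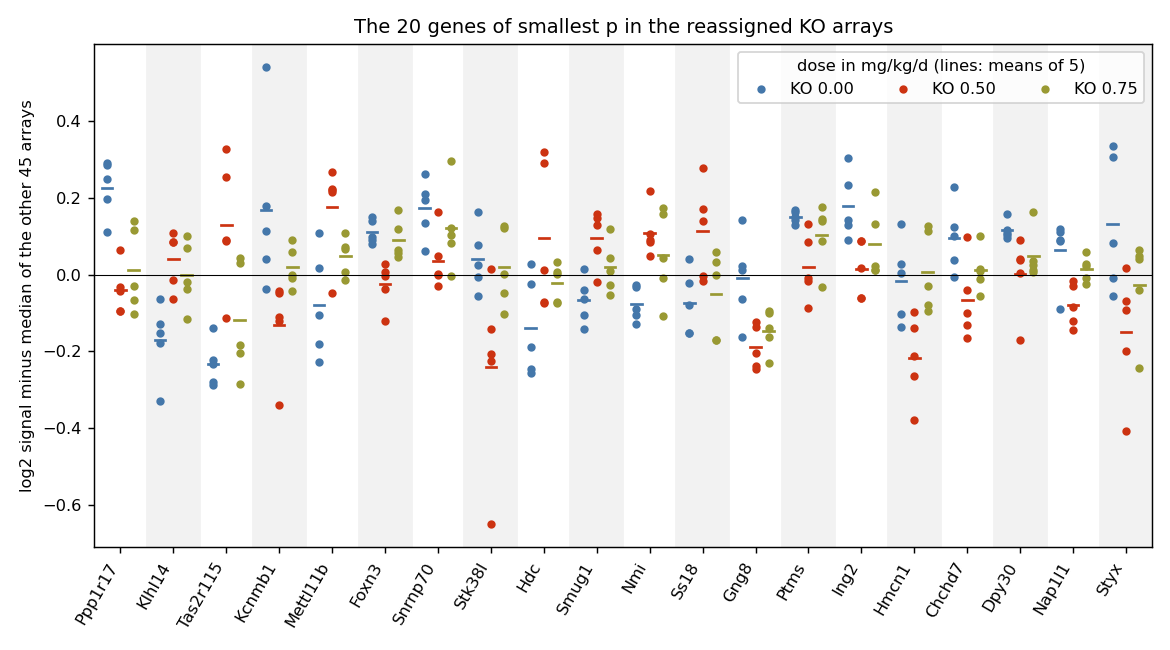
Log2 signal minus the median of the other 45 arrays (vertical axis) for the 20 named genes of smallest p (horizontal axis) in each reassigned KO array at dose 0 (blue), 0.50 (red) and 0.75 (olive), with the mean of 5 arrays as a line. Dose 0 and 0.50 do not overlap for Ppp1r17, Tas2r115, Kcnmb1, Foxn3, Nmi, Ing2 and Dpy30, among genes chosen by p in this same contrast. Over all transcript clusters the share without overlap is 0.381%.

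The doses of KO were also compared with each other. For 0.75 minus 0.50 limma called 0 of 21789 (0%), where 535 had an unadjusted p under 0.05. The lowest adjusted p in limma was 0.506, for Vmn2r122, a vomeronasal receptor named after its value was seen (log2 difference -0.22, SE 0.0476). For 0.75 minus 0 it also called 0 (0%), with 555 at an unadjusted p under 0.05. In the other genotypes limma called 1 transcript cluster at WT 0.85 (0.00459%), the olfactory receptor Olfr124 at -0.43 on the log2 scale (SE 0.0767, adjusted p = 0.0189). It called 0 at WT 0.75, at both Q-tg doses and at both R-tg doses, where 2027, 590, 799, 794 and 2838 transcript clusters had an unadjusted p under 0.05. The 341 at KO 0.50 was the lowest of the 8 contrasts of a dose with dose 0 in the main fit. This number ranged from 286 to 747 when each array was left out in turn, and was 1565 with array weights. A difference between genotypes in response was not tested, since no other genotype received 0.50.

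The composition of the pools was read from marker genes. The neuronal genes Tubb3, Dcx, Stmn2, Snap25 and Neurod6 were at 10.61 to 12.93 in all 10 arrays, so the neuronal markers of the labelled tissue were present. Fewer cells of a type and less RNA per cell cannot be told apart in such pools. The mean log2 signal of the 12 pituitary genes in an array ran from 6.38 to 6.86 at dose 0 and from 6.31 to 6.84 at 0.50, that of 20 hindbrain and spinal cord genes from 6.29 to 6.45 and from 6.31 to 6.64, and that of 16 choroid plexus genes from 7.76 to 7.96 and from 7.84 to 7.99.

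Gh, growth hormone of the anterior pituitary, was at 10.43, 7.002, 10.21, 10.18 and 7.41 at dose 0 and at 6.87, 6.65, 9.78, 6.94 and 10.21 at 0.50. It was high in 3 arrays at dose 0 and in 2 at 0.50, with a gap of more than 2 log2 units between high and low arrays at each dose. The log2 difference was -0.96 (SE 0.887, 95% confidence interval -2.74 to 0.82). Of 12 pituitary genes 8 were below 0 (median -0.0624), with Cga, the shared subunit of the glycoprotein hormones, at -0.16 (SE 0.199), Pomc at -0.11 (SE 0.135) and Lhx3, a pituitary and motor neuron factor, at -0.10 (SE 0.0926).

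Hoxa5, a homeobox gene of the caudal hindbrain and spinal cord, was at 6.37, 6.87, 5.94, 6.59 and 6.09 at dose 0 and at 6.83, 7.04, 7.11, 6.34 and 6.24 at 0.50. The arrays at 6.83, 7.04 and 7.11 were the highest at 0.50, but dose 0 reached 6.87, so the groups overlapped. The log2 difference was 0.34 (SE 0.344). Of 20 hindbrain and spinal cord genes 17 were above 0 (median 0.0716, 10 of them dim), with Hoxb5 at 0.23 (SE 0.202), Hoxa4 at 0.18 (SE 0.102) and Slc6a5, the glycine transporter of inhibitory neurons, at 0.13 (SE 0.263). Under the deposited labels the median of this list was -0.168. The other 45 arrays had Hoxa5 between 5.78 and 8.28.

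Ttr, transthyretin of the choroid plexus, was at 12.24, 12.65, 12.63, 12.65 and 12.49 at dose 0 and between 12.54 and 12.62 at 0.50. Only replicate 1 of dose 0 stood apart, below all others. Of 16 choroid plexus genes 10 were above 0 (median 0.0346), with the potassium channel Kcnj13 at 0.15 (SE 0.0828), Cldn2 at 0.11 and dim, the sulfate transporter Slc13a4 at 0.08 and F5 at -0.06.

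The sex-linked genes differed between pools. Xist, the RNA that coats the inactive X chromosome in females, was at 11.68, 11.60, 11.37, 10.97 and 11.73 at dose 0 and at 5.29, 11.75, 11.84, 11.22 and 11.11 at 0.50. Replicate 1 of 0.50 was lower than every other of the 10 arrays by more than 5 log2 units. Eif2s3y, a gene of the Y chromosome, was at 8.86, 8.64, 8.91, 8.91 and 7.15 at dose 0 and at 9.84, 8.13, 7.60, 8.64 and 8.90 at 0.50, highest in that same array and lowest in replicate 5 of dose 0. With both of these arrays left out, limma called 0 and 1172 transcript clusters had an unadjusted p under 0.05, with a smallest adjusted p of 0.853. Ache then differed by -0.03, and the median of the nicotinic subunits was 0.0868 in place of 0.0202. With Xist and the mean of the Y-linked genes as covariates, limma called 0, 354 transcript clusters had an unadjusted p under 0.05, and the named genes kept their sign, with Pon1 left out and Xist, as a covariate, giving no value. The part of dissection in the differences between doses was not tested.

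**Figure D5:**
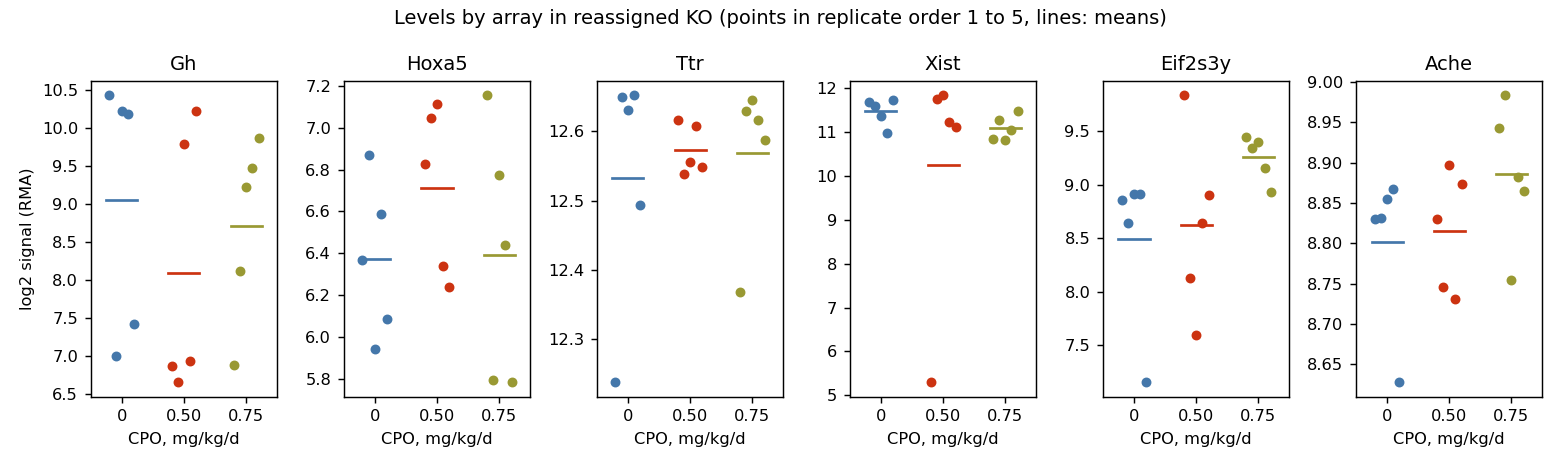
Log2 signal (vertical axis, its own scale in each panel) of Gh, Hoxa5, Ttr, Xist, Eif2s3y and Ache in the reassigned KO arrays at dose 0, 0.50 and 0.75 mg/kg/d (horizontal axis), with replicates 1 to 5 from left to right and the mean as a line. Gh falls into high and low arrays at dose 0 and 0.50, Xist is at 5.29 in replicate 1 of 0.50, and the doses overlap in every panel.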

How the data were processed

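Gene expression in fetal mouse brain was measured on Affymetrix Mouse Gene 1.0 ST arrays, 60 in all. The deposited values are log2 signals that the authors made with RMA from the oligo package under R 2.15.1, per the submitters' processing notes, and the deposited session information names oligo 1.22.0. They were used as deposited. The platform annotation names 1 gene for 21789 of 28858 transcript clusters, several for 1621 and none for 5448, and the 21789 were tested. Of these, 21698 were found in the GRCm38.p6 gene table, used for names and chromosomes only. The genome build behind the array's annotation is not given in the sources used here.

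Labels were reassigned by the inferred order given above, and the deposited labels were kept as an alternative. limma 3.58.1 in R 4.3.3 fitted the 12 reassigned groups to all 60 arrays, with moderated 2-sided tests and Benjamini-Hochberg adjustment over the 21789 transcript clusters of a contrast, at 0.05. The script was tested on simulated data first. No arrays were identical, and pairs correlated between 0.986 and 0.998. The lower quartile of the arrays averaged 6.36 ± 0.064 at dose 0 and 6.37 ± 0.0736 at 0.50 (SD, n = 5).

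Named were the 3 paraoxonase and the 2 cholinesterase genes, those past the threshold or, where fewer than 20 passed, the 20 of smallest p (1 transcript cluster per symbol, with predicted, clone, small RNA, olfactory and vomeronasal receptor symbols passed over), the 4 members of largest difference of each list described, 3 genes of the Pon1 region and 5 genes that mark the pools. The arrays compared, the 35 lists (748 entries, 683 measured) and the tests were chosen with earlier results of these data known. The alternatives were the deposited labels, only the 10 or the 15 KO arrays, a trended and robust prior, weights per array, leaving out dim transcript clusters, adding those without 1 symbol, median centring, quantile normalization, the replicate number as a block, the lower quartile or the sex-linked genes as covariates, and leaving out each array. Figures were drawn with matplotlib 3.10.9 in Python 3.11.15.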

Additional observations from a re-analysis of the deposited data

Results flagged for a closer look

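In 15 of 194 pairs of a named gene and a KO dose group, 1 array stood far from the other 4. The gap to the nearest of them took up more than 0.71 of the range of the 5 arrays. Chance alone marks about 1 in 20 such groups, and the 15 pairs share 5 arrays. All values are log2 signals under the reassigned labels.

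Replicate 1 of dose 0 was lowest for Pon1 at 4.84 (the other 4 arrays at 5.36 to 5.50), for Lypla2 at 9.68 (9.78 to 9.81) and for Dusp1 at 9.07 (9.41 to 9.48), and highest for the imprinted gene Mest at 11.48 (11.10 to 11.18). Replicate 5 of dose 0 was lowest for Ache at 8.63 (8.83 to 8.87), for the histone chaperone Nap1l1 at 10.52 (10.70 to 10.73) and for the Y-linked Eif2s3y at 7.15 (8.64 to 8.91).

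Replicate 1 of 0.50 was lowest for Xist at 5.29 (11.11 to 11.84), Kcnmb1 at 5.81 (6.03 to 6.10), Mettl11b at 6.27 (6.53 to 6.58) and Osgin1 at 6.57 (6.82 to 6.91), and highest for Ric3 at 8.32 (8.07 to 8.12). Replicate 3 of 0.50 was highest for Asb4 at 8.08 (7.71 to 7.77) and for Agt at 8.51 (8.05 to 8.17). Replicate 4 of 0.50 was highest for the coagulation factor F5, at 5.96 (5.68 to 5.73).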

How the results depend on the processing

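The number called for CPO 0.50 against 0 in KO was 0 in the main fit and under each alternative run, and limma's smallest adjusted p was then between 0.119 (array weights) and 1. The number at an unadjusted p under 0.05 was 341 in the main fit, 199 with the filter on dim transcript clusters, 400 under the deposited labels, 676 after quantile normalization, 796 with the lower quartile as covariate and 1565 with array weights. Leaving out each array in turn gave 0 calls throughout and 286 to 747 at an unadjusted p under 0.05, the most without replicate 1 of 0.50, and a smallest adjusted p of 0.33 without replicate 1 of dose 0. With replicate 5 of dose 0 and replicate 1 of 0.50 left out together, an alternative added after seeing the data, the number was 1172. For 0.75 against 0.50 each array left out in turn gave 0 calls and 335 to 1269 at an unadjusted p under 0.05, against 535. The counts of the genotype contrasts all went to 0 under the deposited labels. Causes were not tested.

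Replicate numbers did not pair the arrays, since same-numbered arrays of dose 0 and 0.50 had correlations of their deviations between -0.222 and -0.0985. With the replicate number as a block, limma called 0 for 0.50 against 0 (342 at an unadjusted p under 0.05) and 0 for 0.75 against 0.50 (533).

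Under the deposited labels 3 of the reassigned 0.50 arrays stand as dose 0. The rest of that labelled dose 0 group are WT at 0.85 by the reassignment, with Pon1 at 10.045 and 9.91. Of the arrays labelled KO at 0.50, 3 are reassigned KO at 0.75. By the reassignment the deposited contrast thus mixes genotype with dose. With the deposited labels 66 of the 96 named genes with Pon1 left out took the opposite sign, none past the threshold. Among the enzyme, receptor and detoxification genes the log2 differences were then -0.055 for Ache, 0.053 for Pon3, -0.0068 for Ric3, -0.073 for Musk, -0.052 for Chrnb1, -0.058 for Chrm2, -0.10 for Mnx1, -0.12 for Slc5a7, -0.032 for Gbx1, -0.14 for Nceh1, 0.038 for Lypla2, 0.031 for Aadac, -0.19 for Pla2g7, 0.28 for Cyp1a2, -0.058 for Gstt1, 0.011 for Txn1 and 0.057 for Osgin1. Among the 20 named genes of smallest p they were 0.065 for Ppp1r17, -0.040 for Klhl14, -0.096 for Tas2r115, 0.056 for Kcnmb1, 0.077 for Foxn3, 0.054 for Snrnp70, 0.032 for Stk38l, -0.017 for Hdc, -0.026 for Smug1, -0.075 for Ss18, 0.075 for Ptms, 0.099 for Ing2, 0.030 for Hmcn1, 0.031 for Nap1l1 and 0.018 for Styx. Among stress and development genes they were 0.0088 for Phgdh, -0.0061 for Hspa5, -0.069 for Hspb8, 0.013 for Dnaja1, 0.018 for Dusp1, -0.043 for Rims1, 0.069 for Efnb3, 0.018 for Nrp2, -0.044 for Sema3e, 0.086 for Birc5, 0.10 for Mcm3, 0.11 for Plk1, 0.069 for Cenpf, -0.15 for Agt, 0.056 for Eomes, 0.11 for Nes and -0.21 for Aqp4. Among neighbours of Pon1, imprinted genes and marks of the pools they were 0.39 for Asb4, 0.12 for Calcr, 0.085 for Peg10, 0.11 for Mest, 0.072 for Meg3, 0.045 for Magel2, 0.28 for Gh, 0.062 for Lhx3, -0.60 for Hoxa5, -0.42 for Hoxb5, -0.17 for Hoxa4, -0.58 for Slc6a5, -0.032 for Ttr, -0.076 for Kcnj13, -0.13 for Slc13a4, 0.089 for F5 and 0.71 for Xist. List medians moved by more than the spread between replicates for 7 of 35 lists, from 0.0716 to -0.168 for hindbrain and spinal cord, -0.0472 to 0.00569 for imprinted growth, 0.0209 to -0.0189 for xenobiotic genes, -0.0151 to 0.0353 for axon guidance, 0.0172 to -0.0287 for the oligodendrocyte lineage, 0.000209 to 0.0553 for cortical projection neurons and 0.0407 to 0.684 for the sex-linked genes.

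With array weights the sign turned for Ache (-0.014), Ttr (-0.019), Eif2s3y (-0.16) and Colq (0.013). With each array left out in turn it turned for 7 genes, which then ranged from -0.030 to 0.035 (Ache), -0.033 to 0.070 (Ttr), -0.0035 to 0.088 (Musk), -0.21 to 0.38 (Eif2s3y), -1.63 to 0.0083 (Xist), -0.0030 to 0.058 (Ric3) and -0.079 to 0.013 (Colq). Of the 96 genes, 55 turned or moved by more than 1.5 times in size without at least 1 of the 10 arrays, from 8 genes without replicate 3 of dose 0 to 21 without replicate 1 of dose 0. Meg3 ranged from -0.125 to -0.011 and Mest from -0.133 to -0.038, both nearest 0 without replicate 1 of dose 0. Of the list medians only that of NRF2 targets moved by more than the spread between replicates, to -0.0274 without that same array. With the pair of arrays left out together it turned for Ache (-0.034), Xist (0.074), Eif2s3y (-0.51), Ric3 (-0.0045), Colq (0.038) and Osgin1 (0.0045), and the medians moved to 0.0868 for nicotinic subunits, 0.0661 for erythroid genes and -0.448 for the sex-linked genes. With the sex-linked genes as covariates, 354 had an unadjusted p under 0.05 and no named gene turned, Xist and Pon1 aside.

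All 10 arrays rest on an inferred order, and the doses within KO have no marker that could check it. With 5 dams a group the median SE was 0.064 on the log2 scale, and differences of several times their SE also went uncalled. Vmn1r52, which had the smallest p, differed by -0.30 (SE 0.0746) and did not pass the threshold. The 0 calls therefore do not exclude differences well above 0.064. Pools differed by more than 2 log2 units in Gh within each dose.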
